A study of Homo sapiens with 16 samples.

Results

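Cadherins and protocadherins were examined in 16 RNA-seq libraries of MDA-MB-231 and MDA-MB-436, 2 established mesenchymal triple-negative breast cancer cell lines. The genes taken were all protein-coding genes whose symbol is CDH followed by a number or starts with PCDH. The annotation held 89 such genes, and 86 had a matching identifier among the 57820 gene IDs of the count tables, while PCDH20, PCDHB16 and PCDHGB5 had none and were not analysed here. A sum of at least 10 counts over a condition's 8 libraries was required, which left 84 members for the test in low serum and 72 for that in standard serum, among 16069 and 15414 protein-coding genes. Just inside this limit lay PCDHA3 with 10 counts and CDH8 with 12 in low serum, and PCDH11X and PCDHA10 with 12 each in standard serum. Just outside it in standard serum lay PCDHA13 with 9 counts and PCDHA3 with 8.

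All cells carried 7TGP, a vector in which TCF-binding sites drive eGFP and which confers resistance to puromycin. It was delivered with liposomes and kept under puromycin selection. Each line was sorted repeatedly on eGFP into a reporter-negative subline, 7TGP-NEG, and a reporter-positive subline, 7TGP-POS, and both were expanded. Both sublines of both lines were grown in low serum (0.5% FBS, collected on day 3) and in standard serum (10% FBS, collected on day 6), with 2 biological replicates in each of the 8 groups. The p-values measure the spread between these replicate libraries. Reporter activity and any other difference that arose while a subline was sorted and expanded cannot be told apart. Serum, day, library preparation and sequencer changed together, so no test was made between serum conditions. The methods give each line a culture medium of its own, so that line and medium would not be separable, whereas the labels name DMEM for both, and which of them holds is not known here. In bulk RNA, fewer cells with a transcript and less of it per cell cannot be told apart either.

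Classical cadherins are membrane proteins that bind cadherins of neighbouring cells in the presence of calcium. Their cytoplasmic tails bind beta-catenin, the protein that also carries the canonical Wnt signal to TCF/LEF factors. E-cadherin (CDH1) and N-cadherin (CDH2) are type I cadherins, and loss of the former with gain of the latter is the textbook sign of an epithelial-mesenchymal transition, while type II cadherins such as CDH11 are typical of mesenchymal and neural cells. Protocadherins lack this catenin-binding tail. The PCDHA, PCDHB and PCDHG genes lie in 3 neighbouring clusters in which single promoters are chosen with the help of CTCF and cohesin, whereas the delta-protocadherins are scattered through the genome.

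Library totals ranged from 27918418 to 32667756 counts in low serum and from 31827130 to 46044073 in standard serum. Mesenchymal markers were present in both lines, with VIM among the most abundant, although TWIST1 was near 0 in MDA-MB-231. Of the epithelial keratins, KRT8 and KRT18 were present in both lines, whereas KRT19 was abundant in MDA-MB-231 and scarce in MDA-MB-436. In low serum the KRT19 counts, summed per group, were 49459 and 32216 in MDA-MB-231 7TGP-NEG and 7TGP-POS, against 39 and 54 in MDA-MB-436. OVOL1, GRHL2 and RAB25 were near 0 in both lines. As a check of the reporter label 10 Wnt feedback genes were taken, with the thresholds for a call given in the next paragraph. In MDA-MB-231 LGR5 was called higher in low serum and RNF43 in standard serum, and none lower. That was 10% of the list each time, against 3.5% and 4.96% of all genes. Under the fold threshold in low serum there, AXIN2, LEF1, RNF43 and DKK1 had log2 fold changes of 0.65, 0.63, 0.60 and 0.29, and SP5 had -0.55. Each of these 5 had an edgeR adjusted p below 0.05. In MDA-MB-436 7TGP-POS, DKK1 was called higher in both conditions, NKD1 lower in low serum, and RNF43 and SP5 lower in standard serum. The share higher was 10% in both, against 6.52% and 6.47% of all genes. The shares lower were 10% and 20%, against 4.03% and 6.06%, in low and standard serum. AXIN2 was not called in any of these comparisons.

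Between 7TGP-POS and 7TGP-NEG cells, 45 of the 86 members were called in at least 1 of the 4 comparisons and 41 in none. Of the 86, 84 reached the count limit under low serum and 72 under standard serum. A member below the limit was counted as not called there. The share of all genes called in at least 1 comparison was not computed, so the 45 have no background to be set against. A gene was called when the edgeR quasi-likelihood test gave a Benjamini-Hochberg adjusted p below 0.05 over all genes tested and the log2 fold change was at least 1 in size. In MDA-MB-231 in low serum 17 of 84 members (20.2%) were called against 5.9% of all genes, with 6 higher and 11 lower against 3.5% and 2.4%. In MDA-MB-231 in standard serum 24 of 72 members (33.3%) were called against 7.69% of all genes, with 10 higher and 14 lower against 4.96% and 2.72%. In MDA-MB-436 in low serum 22 of 84 (26.2%) were called against 10.5%, with 13 higher and 9 lower against 6.52% and 4.03%. In MDA-MB-436 in standard serum 22 of 72 (30.6%) were called against 12.5%, with 11 higher and 11 lower against 6.47% and 6.06%. The shares of called members were thus above those of all genes in the 4 comparisons.

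Many members were scarcely counted, and a group was taken to be at the floor when each of its libraries held 3 counts or fewer. Of the members called, 6 and 5 in MDA-MB-231 and 8 and 7 in MDA-MB-436 had a group at the floor, in low and standard serum. The median log2 fold change of the members tested was -0.41 and -0.46 in MDA-MB-231 and 0.00 and -0.21 in MDA-MB-436, beside medians of all genes between -0.01 and 0.01. With genes at the floor set to their bound or observed ratio, and those at the floor in both groups left out, it was -0.51 and -0.43 in MDA-MB-231 and -0.12 and -0.42 in MDA-MB-436. Of the members called in both serum conditions, 11 in MDA-MB-231 and 15 in MDA-MB-436 had the same direction and 0 the opposite. Both conditions used the same sublines, and this count was not made over all genes, so it is not a trait of the members. CDH13 and PCDHB10 were called in all 4 comparisons, CDH13 upward each time and PCDHB10 downward in MDA-MB-231 and upward in MDA-MB-436.

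E-cadherin was close to the detection limit. CDH1 (ENSG00000039068; GRCh37 chr16:68771195-68869440, plus strand) had between 1 and 12 counts in each of the 16 libraries. In low serum it had 3 and 9 counts in MDA-MB-231 7TGP-NEG and 12 and 4 in 7TGP-POS, and 3 and 2 against 2 and 5 in MDA-MB-436. The groups overlapped and the gene was not called in any comparison, so that a change of CDH1 was not detectable at this depth. P-cadherin (CDH3), a cadherin of basal epithelial cells, had group means between 0.240 and 1.31 TPM and was not called for the reporter either. Its log2 fold changes were 0.15 ± 0.29 and -0.36 ± 0.26 in MDA-MB-231 and -0.56 ± 0.40 and -0.12 ± 0.42 in MDA-MB-436, in low and standard serum.

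N-cadherin was abundant in one line and scarce in the other. CDH2 (ENSG00000170558; GRCh37 chr18:25512843-25757910, minus strand) measured 218 and 212 CPM (counts per 1000000 counts of the library) in MDA-MB-436 7TGP-NEG and 229 and 224 CPM in 7TGP-POS in low serum. In MDA-MB-231 it measured 0.946 and 0.768 CPM and 1.44 and 1.55 CPM, far below both MDA-MB-436 sublines. Between the 7TGP-NEG sublines the log2 fold change of MDA-MB-231 over MDA-MB-436 was -7.86 ± 0.09 (SE, n = 2 and 2, edgeR adjusted p = 4.46e-43) in low serum and -8.63 ± 0.16 (edgeR adjusted p = 9.56e-19) in standard serum. For the reporter CDH2 did not reach the fold threshold in either line. In MDA-MB-436 in standard serum 137 and 135 CPM stood against 245 and 232 CPM, groups that did not overlap, with a log2 fold change of 0.75 ± 0.08 (edgeR adjusted p = 6.62e-07), whereas the value in low serum was 0.06 ± 0.05 (edgeR adjusted p = 0.286). In MDA-MB-231 it was 0.80 ± 0.21 in low serum and 0.23 ± 0.37 in standard serum.

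CDH11 (ENSG00000140937; GRCh37 chr16:64977656-65160015, minus strand), a type II cadherin of mesenchymal cells, showed the opposite order of the lines, with group means of 83.7 to 115 TPM in MDA-MB-231 and 1.33 to 7.96 TPM in MDA-MB-436. It rose in MDA-MB-436 7TGP-POS. There it went from 3.64 and 3.58 CPM to 21.6 and 20.4 CPM in standard serum, giving a log2 fold change of 2.49 ± 0.10 (edgeR adjusted p = 7.75e-13), and from 7.78 and 8.87 CPM to 17.4 and 18.8 CPM in low serum, giving a log2 fold change of 1.11 ± 0.08 (edgeR adjusted p = 2.47e-15). The call in low serum was lost with limma on log2(TPM + 0.1) and on log2(TPM + 1), the group means being 2.54 and 4.65 TPM. In MDA-MB-231 it was at 335 and 336 CPM and 521 and 531 CPM in low serum, and the log2 fold changes of 0.66 ± 0.05 there and -0.11 ± 0.07 in standard serum were under the fold threshold. The difference between the lines in the response of CDH11 was -2.60 ± 0.12 in standard serum (edgeR adjusted p = 1.47e-11) and -0.46 ± 0.09 in low serum, where it was not called.

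**Figure D1:**
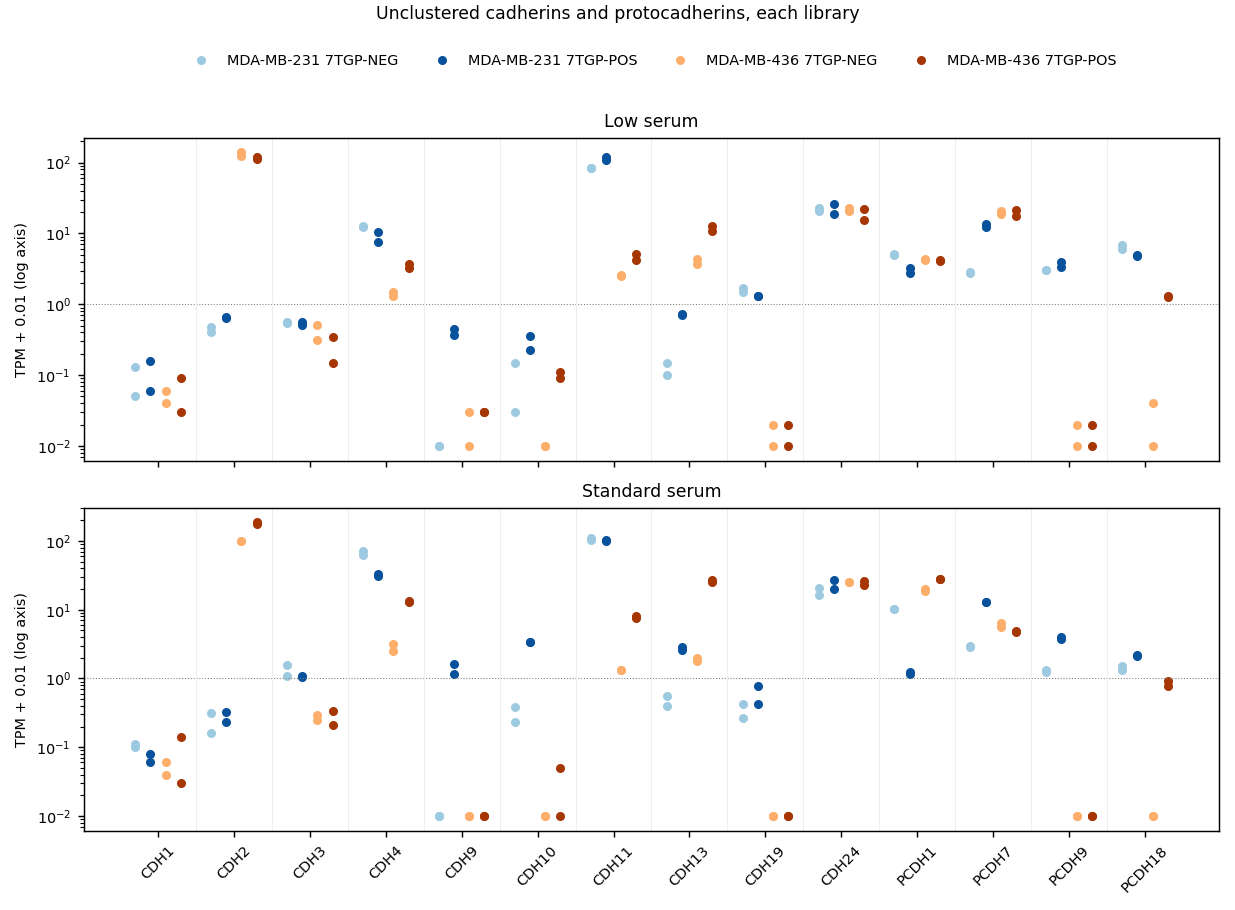
Deposited TPM plus 0.01 on a log axis for CDH1 and the unclustered members with a group mean of at least 1 TPM, with 1 point per library, low serum above and standard serum below, and a dotted line at 1 TPM. CDH2 lies near or above 100 TPM in MDA-MB-436 and below 1 TPM in MDA-MB-231, CDH11 shows the opposite order, CDH13 is higher in 7TGP-POS of both lines, and the CDH24 points lie close together in all groups.

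R-cadherin (CDH4; ENSG00000179242; GRCh37 chr20:59827317-60515673, plus strand), a type I cadherin known from neural tissue, moved in opposite directions in the lines in standard serum. It rose from 4.56 and 5.82 CPM to 22.8 and 24.2 CPM in MDA-MB-436, a log2 fold change of 2.11 ± 0.11 (edgeR adjusted p = 3.50e-11). It fell from 124 and 112 CPM to 58.4 and 56.5 CPM in MDA-MB-231, a log2 fold change of -1.10 ± 0.09 (edgeR adjusted p = 3.48e-08). The difference between the lines was -3.21 ± 0.14 (edgeR adjusted p = 6.76e-12), and in low serum it was -1.83 ± 0.15, made of 1.56 ± 0.13 in MDA-MB-436 and -0.27 ± 0.08, under the fold threshold, in MDA-MB-231. The 50 expressed genes nearest to CDH4 outside the family changed by a median of -0.42 (log2) in MDA-MB-231 and 0.34 in MDA-MB-436 in standard serum.

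T-cadherin (CDH13; ENSG00000140945; GRCh37 chr16:82660570-83834245, plus strand) is an atypical cadherin that is anchored to the membrane by a lipid and has no catenin-binding tail. In MDA-MB-231 it measured 0.261 and 0.401 CPM in 7TGP-NEG and 2.24 and 2.40 CPM in 7TGP-POS in low serum, and 1.02 and 0.754 CPM and 4.95 and 5.58 CPM in standard serum. In MDA-MB-436 it measured 9.86 and 9.15 CPM and 31.6 and 34.4 CPM in low serum, and 3.55 and 3.86 CPM and 50.8 and 48.8 CPM in standard serum. The 7TGP-POS libraries were above the 7TGP-NEG libraries each time, without overlap. The log2 fold changes were 2.81 ± 0.28 and 2.50 ± 0.17 in MDA-MB-231 (edgeR adjusted p = 4.39e-11 and 2.52e-09) and 1.78 ± 0.09 and 3.69 ± 0.12 in MDA-MB-436 (edgeR adjusted p = 6.20e-20 and 4.34e-14), in low and standard serum. The difference between the lines had opposite signs in the 2 conditions, 1.03 ± 0.32 in low serum and -1.19 ± 0.23 in standard serum (edgeR adjusted p = 0.00793 and 3.85e-04).

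Apart from CDH24, the other type II cadherins were low, with group means of at most 3.36 TPM, reached by CDH10, and those called were all higher in 7TGP-POS. Of 12 type II members tested in low serum 4 were called higher in MDA-MB-231 and 4 in MDA-MB-436, against 3.5% and 6.52% of all genes, and of 11 tested in standard serum 5 and 2, against 4.96% and 6.47%, with none lower. CDH10, a neural cadherin, went in MDA-MB-231 from 0.359 and 0.220 CPM to 3.29 and 3.32 CPM in standard serum, giving a log2 fold change of 3.42 ± 0.33 (edgeR adjusted p = 3.52e-07), and in low serum the change was 2.03 ± 0.66, a call that was lost without the first 7TGP-NEG library (1.25) or the first 7TGP-POS library (1.75). CDH9, also neural, had 0 and 0 counts in MDA-MB-231 7TGP-NEG and 24 and 21 in 7TGP-POS in low serum, and 0 and 0 against 62 and 47 in standard serum. Against a floor of 3 counts per library it was at least 7.79-fold and 17.8-fold higher. CDH18 had 0 and 3 counts against 50 and 45 in low serum, a ratio of 32.9 (95% exact counting interval 10.9 to 163), and 1 and 0 against 35 and 21 in standard serum, a ratio of 54.8 (95% exact counting interval 9.44 to 2201). These intervals cover counting error alone.

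CDH7, CDH12 and CDH6 rested on few reads, and their calls in low serum, that of CDH10 in MDA-MB-436 in low serum and that of CDH12 in standard serum were lost when 1 library was left out. CDH7 had 0 and 1 counts in MDA-MB-231 7TGP-NEG and 13 and 11 in 7TGP-POS in standard serum, CDH12 had 3 and 0 and 18 and 10, and CDH6, called in MDA-MB-436, had 1 and 0 and 19 and 11 there. The call of CDH6 in standard serum was lost with the DESeq2 Wald test and with limma on log2(TPM + 0.1). CDH6, CDH9, CDH10, CDH12 and CDH18 all lie on chromosome 5. The 50 expressed genes nearest to CDH10 had a median log2 fold change of 0.22 and 0.10 in MDA-MB-231 and of -1.28 and -1.09 in MDA-MB-436, in low and standard serum, the median being below 0 in MDA-MB-436 under both conditions. CDH24, a more widely expressed type II cadherin, lay between 18.7 and 25.2 TPM in all group means, with log2 fold changes from -0.14 to 0.29 and no call. CDH19, a cadherin of glial lineages, had group means of 0.335 to 1.58 TPM in MDA-MB-231 and at most 1 count in a library in MDA-MB-436, and was not called for the reporter.

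**Figure D2:**
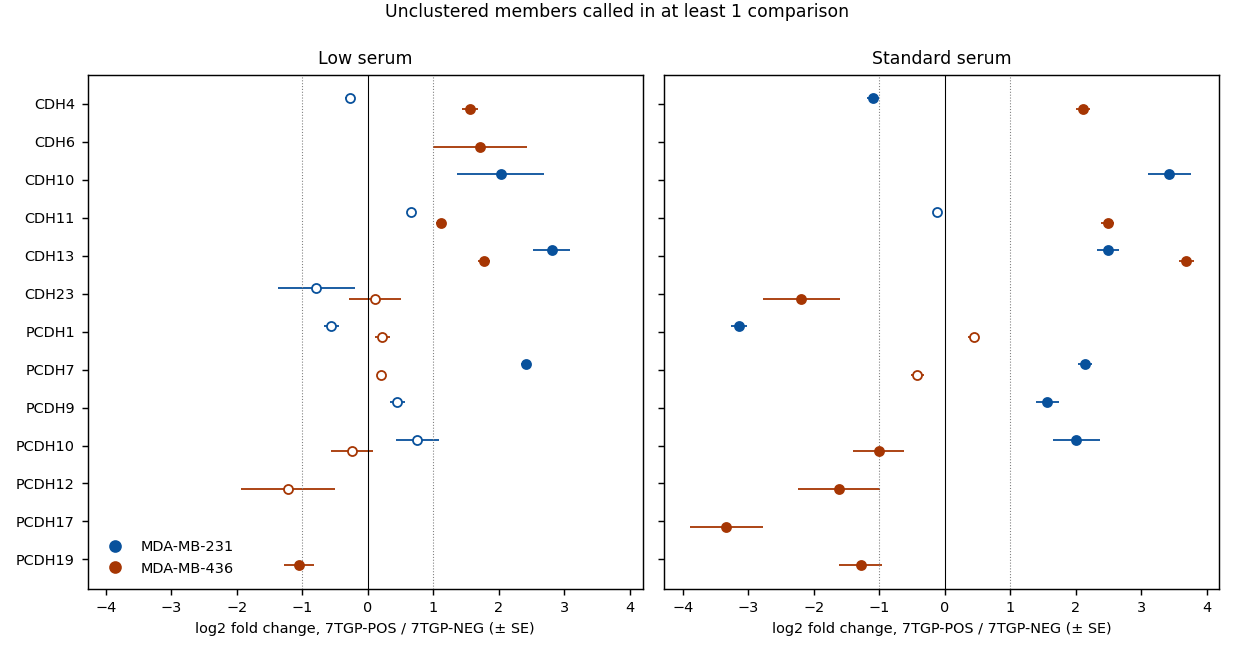
Log2 fold change of 7TGP-POS over 7TGP-NEG with its SE, for the unclustered members called in at least 1 comparison with both groups above the floor, in low serum (left) and standard serum (right). Filled points were called and open points were not, dotted lines mark a log2 fold change of 1 in either direction, and comparisons with a group at the floor are not drawn. CDH13 lies beyond the threshold in both lines and conditions, CDH4 lies on opposite sides of 0 in the lines, and PCDH7 passes the threshold in MDA-MB-231 alone.

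PCDH7 rose in MDA-MB-231. PCDH7 (ENSG00000169851; GRCh37 chr4:30721991-31148427, plus strand), a delta-1 protocadherin, measured 11.4 and 11.8 CPM in MDA-MB-231 7TGP-NEG and 61.5 and 61.6 CPM in 7TGP-POS in low serum, and 7.92 and 7.92 CPM and 36.01 and 36.5 CPM in standard serum. The log2 fold changes were 2.41 ± 0.07 and 2.14 ± 0.10 (edgeR adjusted p = 4.51e-28 and 1.62e-11). MDA-MB-436 7TGP-NEG already held 67.3 and 67.01 CPM in low serum, against 74.6 and 81.6 CPM in 7TGP-POS, and the changes there were 0.20 ± 0.06 and -0.42 ± 0.10, under the fold threshold. The difference between the lines was 2.21 ± 0.09 in low serum and 2.56 ± 0.14 in standard serum (edgeR adjusted p = 6.07e-23 and 1.07e-10).

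PCDH1 (ENSG00000156453; GRCh37 chr5:141232655-141258811, minus strand), a delta-1 protocadherin found in epithelia, fell in MDA-MB-231 in standard serum from 15.04 and 15.7 CPM to 1.84 and 1.78 CPM, a log2 fold change of -3.14 ± 0.12 (edgeR adjusted p = 7.35e-13). In low serum 11.2 and 11.7 CPM stood against 7.95 and 7.51 CPM in the same line, a change of -0.56 ± 0.11 that was under the fold threshold. MDA-MB-436 changed by 0.22 ± 0.11 and 0.44 ± 0.09, and the difference between the lines in standard serum was -3.58 ± 0.15 (edgeR adjusted p = 2.72e-12). PCDH9, another delta-1 gene, was at 1 count or fewer in each MDA-MB-436 library and rose in MDA-MB-231 in standard serum from 2.21 and 2.45 CPM to 7.29 and 7.03 CPM, a log2 fold change of 1.57 ± 0.18 (edgeR adjusted p = 4.30e-06), with 0.45 ± 0.12 in low serum.

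Among the delta-2 genes, PCDH18 rose and PCDH17 fell in MDA-MB-436 7TGP-POS. PCDH18 (ENSG00000189184; GRCh37 chr4:138440072-138453648, minus strand) had 2 and 0 counts in 7TGP-NEG and 96 and 82 in 7TGP-POS in low serum, a ratio of 91.6 (95% exact counting interval 24.99 to 762), and 0 and 0 against 56 and 52 in standard serum, at least 15.98-fold higher. PCDH17 had 44 and 64 counts in 7TGP-NEG and 2 and 1 in 7TGP-POS in low serum, 34.98 (95% exact counting interval 11.7 to 172) times more in 7TGP-NEG, and 19 and 35 against 4 and 2 in standard serum, giving a log2 fold change of -3.33 ± 0.56 (edgeR adjusted p = 1.25e-04). MDA-MB-231 held PCDH18 in both sublines, at 14.7 and 16.1 CPM and 13.03 and 13.7 CPM in low serum, without a call, and had at most 1 count of PCDH17 in a library. PCDH19 was lower in MDA-MB-436 7TGP-POS, with 102 and 72 counts against 37 and 45 in low serum and log2 fold changes of -1.05 ± 0.23 and -1.28 ± 0.33. PCDH10 had 12 and 9 counts against 47 and 43 in MDA-MB-231 in standard serum, giving a log2 fold change of 2.00 ± 0.36, and 17 and 26 against 17 and 8 in MDA-MB-436, where it was -1.01 ± 0.39. In MDA-MB-436 in standard serum CDH23 and PCDH12 were also called lower and PCDH15 higher, each with at most 27 counts in a library. The calls of these 3 genes, of PCDH10 in MDA-MB-436 and of PCDH19 were lost when 1 library was left out, with log2 fold changes as near to 0 as -0.71 for PCDH10 and -0.89 for PCDH19.

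The clustered genes made up 51 of the 86 members. They lie on chromosome 5 of GRCh37, the PCDHA genes from 140165721 to 140391932, the PCDHB genes from 140430959 to 140628933 and the PCDHG genes from 140710081 to 140892544. Counts of single PCDHA and PCDHG genes are uncertain, since the genes of each of these clusters share their last exons. By the annotation a median of 46.6% of the exonic bases of a PCDHA gene and 43.8% of those of a PCDHG gene lay in exons of other clustered genes, and none of those of PCDHB genes. A median of 5.35% of the 100-base stretches of a PCDHB gene, at most 25.6%, occurred in another clustered gene. Of the clustered genes tested, 11 of 51 were called lower and 0 higher in MDA-MB-231 in low serum, and 12 of 43 lower and 1 higher in standard serum. Of all genes 2.4% and 2.72% were lower and 3.5% and 4.96% higher there, in low and standard serum. In MDA-MB-436 6 were higher and 7 lower in low serum and 5 higher and 6 lower in standard serum. These were 11.8% and 13.7% in low serum, against 6.52% and 4.03% of all genes. In standard serum they were 11.6% and 14.0%, against 6.47% and 6.06%. The median log2 fold changes were -0.74 and -0.70 in MDA-MB-231 and -0.32 and -0.42 in MDA-MB-436. The 50 expressed genes nearest to PCDHB10 outside the family had medians of -0.03 and -0.04 in MDA-MB-231 and 0.03 and -0.08 in MDA-MB-436.

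**Figure D3:**
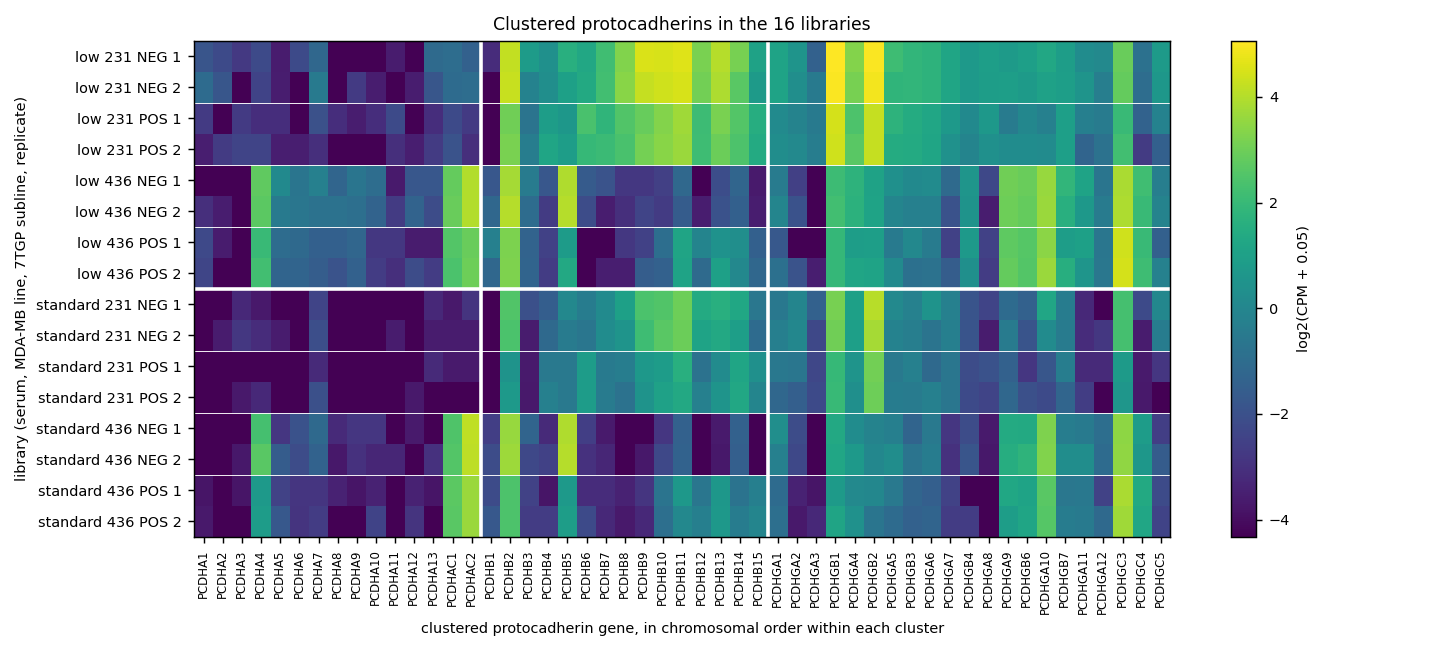
Colour gives log2(CPM + 0.05) of each clustered protocadherin (columns, in chromosomal order within PCDHA, PCDHB and PCDHG) in each of the 16 libraries (rows, low serum above the thick horizontal line). MDA-MB-231 is brighter from PCDHB8 to PCDHB14 and at PCDHGB1 and PCDHGB2, MDA-MB-436 is brighter at PCDHA4, PCDHAC1, PCDHAC2, PCDHGA10 and PCDHGC3, and PCDHB5 is bright in MDA-MB-436 7TGP-NEG alone.

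The lines used different members of the clusters. Between the 7TGP-NEG sublines 32 of 84 members were called higher and 24 lower in MDA-MB-231 in low serum, against 20.5% and 21.4% of all genes, and 24 and 24 of 72 in standard serum, against 21.3% and 25.4%. In low serum 12 of 15 PCDHB genes were higher and 2 lower in MDA-MB-231, of 15 PCDHA genes 2 were higher and 9 lower, and of 21 PCDHG genes 12 were higher and 4 lower. In standard serum 11 of 15 PCDHB genes were higher and 2 lower, of 7 PCDHA genes tested 0 were higher and 5 lower, and the PCDHG genes were evenly split, with 6 higher and 6 lower of 21. PCDHB10 measured 22.3 and 20.9 CPM in MDA-MB-231 7TGP-NEG and 0.122 and 0.105 CPM in MDA-MB-436 7TGP-NEG in low serum, giving a log2 fold change of 7.62 ± 0.22 (edgeR adjusted p = 5.06e-30). PCDHAC2 measured 0.326 and 0.467 CPM and 15.6 and 15.7 CPM, a log2 fold change of -5.19 ± 0.19 (edgeR adjusted p = 3.58e-26). PCDHGB2 stood at 16.7 TPM in MDA-MB-231 7TGP-NEG and 1.38 TPM in MDA-MB-436 7TGP-NEG, and PCDHGA10 at 1.19 and 8.12 TPM, so that the PCDHG cluster held both orders.

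The promoters of PCDHB genes carry a shared stretch. RefSeq promoter windows (GRCh38.p14, 250 bases before to 50 after the start) were found for 70 of the 89 annotated genes, 14 of them PCDHB genes, PCDHB16 included. The letters GGTGGCGCT, chosen from these windows because PCDHB promoters share them, stood in 13 of the 14, all but PCDHB1, and in none of the windows of the other members. On both strands they occurred in 0.501% of 35116 windows of the table. They end in CGCT, the core of the conserved element known from clustered protocadherin promoters. The TCF core ATCAAAG occurred on both strands in 2.62% of all windows and, among the members, in PCDH15 alone. The stretches with the 9 letters in capitals are shown for genes that rose in MDA-MB-436 7TGP-POS (PCDHB10, PCDHB12, PCDHB13, PCDHB14 and PCDHB15), for PCDHB5 and PCDHB2, which fell there, and for PCDHB9, which fell in MDA-MB-231. All are on the plus strand, upstream of the start.
PCDHB10, chr5:141192285-141192343: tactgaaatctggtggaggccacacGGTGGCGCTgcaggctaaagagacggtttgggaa
PCDHB12, chr5:141208629-141208687: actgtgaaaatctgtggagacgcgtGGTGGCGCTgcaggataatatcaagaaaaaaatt
PCDHB13, chr5:141213851-141213909: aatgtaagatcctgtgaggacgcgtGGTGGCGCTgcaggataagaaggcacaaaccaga
PCDHB14, chr5:141223249-141223307: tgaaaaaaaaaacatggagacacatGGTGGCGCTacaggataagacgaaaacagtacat
PCDHB15, chr5:141245300-141245358: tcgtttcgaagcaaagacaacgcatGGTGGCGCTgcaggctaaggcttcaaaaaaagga
PCDHB5, chr5:141135165-141135205: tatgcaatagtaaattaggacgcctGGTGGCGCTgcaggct
PCDHB2, chr5:141094530-141094588: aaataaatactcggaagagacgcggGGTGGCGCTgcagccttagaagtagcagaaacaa
PCDHB9, chr5:141187060-141187118: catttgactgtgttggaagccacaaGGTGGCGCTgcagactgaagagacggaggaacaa
The letters were chosen because PCDHB promoters share them, so their presence in genes that rose and genes that fell says nothing about direction. PCDHB11, which also rose in MDA-MB-436 7TGP-POS, had no promoter window.

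In MDA-MB-436 the genes toward the end of the PCDHB cluster rose and PCDHB5 fell. Of 15 PCDHB genes 6 were called higher and 2 lower in low serum, against 6.52% and 4.03% of all genes, and 5 higher and 2 lower in standard serum, against 6.47% and 6.06%. PCDHB11 measured 0.398 and 0.279 CPM in 7TGP-NEG and 2.18 and 2.15 CPM in 7TGP-POS in low serum, giving a log2 fold change of 2.63 ± 0.28 (edgeR adjusted p = 1.07e-10), and changed by 1.90 ± 0.32 in standard serum. PCDHB13 had 6 and 6 counts against 42 and 55 in low serum, giving a log2 fold change of 3.02 ± 0.36 (edgeR adjusted p = 2.38e-09), and 1 and 1 against 70 and 56 in standard serum, a ratio of 55.7 (95% exact counting interval 15.1 to 465). The groups of both genes did not overlap. PCDHB12 had 0 and 1 counts against 28 and 12 in low serum, a ratio of 41.2 (95% exact counting interval 6.98 to 1666), and 0 and 0 against 27 and 28 in standard serum, at least 8.19-fold higher. PCDHB15 had 1 and 1 against 10 and 11 counts in low serum, a ratio of 10.8 (95% exact counting interval 2.64 to 95.1), and 0 and 0 against 36 and 33 in standard serum, at least 10.2-fold higher. PCDHB10 changed by 1.77 ± 0.54 and 2.02 ± 0.43 in low and standard serum, the former call being lost without the first 7TGP-POS library (1.39), and PCDHB14 by 1.67 ± 0.37 and, under the fold threshold, 0.91 ± 0.36. In low serum PCDHB11 in MDA-MB-231 7TGP-NEG, at 24.2 and 22.7 CPM, was well above the level reached in MDA-MB-436 7TGP-POS.

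PCDHB5 was, with PCDHB2, the PCDHB gene with the highest level per length in MDA-MB-436 7TGP-NEG, at 16.5 and 16.6 TPM in low serum. It fell from 15.4 and 16.2 CPM to 1.74 and 2.47 CPM in low serum and from 15.4 and 16.01 CPM to 1.65 and 1.81 CPM in standard serum. The log2 fold changes were -2.93 ± 0.15 and -3.24 ± 0.16 (edgeR adjusted p = 7.38e-19 and 1.39e-11), and the groups did not overlap. In MDA-MB-231 the changes of -0.59 ± 0.22 and -0.45 ± 0.27 were not called, and the difference between the lines was 2.34 ± 0.29 and 2.79 ± 0.33 (edgeR adjusted p = 9.36e-09 and 2.16e-06). PCDHB6 was called lower in MDA-MB-436 in low serum on 9 and 5 counts against 0 and 0, at least 2.23-fold.

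In MDA-MB-231 the PCDHB genes that were called fell, except PCDHB6. PCDHB2, PCDHB9 and PCDHB10 were called lower in low serum, and in standard serum these together with PCDHB8, PCDHB11, PCDHB12 and PCDHB13, while PCDHB6 was higher, at 1.36 ± 0.29. The calls of PCDHB6 and PCDHB8 were lost with the DESeq2 Wald test. PCDHB9 measured 23.03 and 19.03 CPM in 7TGP-NEG and 7.38 and 8.46 CPM in 7TGP-POS in low serum, giving a log2 fold change of -1.40 ± 0.11 (edgeR adjusted p = 3.12e-13). PCDHB10 went from 22.3 and 20.9 CPM to 10.03 and 10.4 CPM in low serum and from 5.66 and 6.22 CPM to 1.78 and 2.01 CPM in standard serum, with log2 fold changes of -1.07 ± 0.10 and -1.70 ± 0.18 (edgeR adjusted p = 7.82e-12 and 1.02e-06). The groups did not overlap for either gene. PCDHB2 changed by -1.12 ± 0.10 and -1.91 ± 0.16 in MDA-MB-231 and by -0.69 ± 0.10, under the fold threshold, and -1.27 ± 0.13 in MDA-MB-436. PCDHB4 and PCDHB7 were not called, at 0.71 and -0.23 in MDA-MB-231 in low serum.

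**Figure D4:**
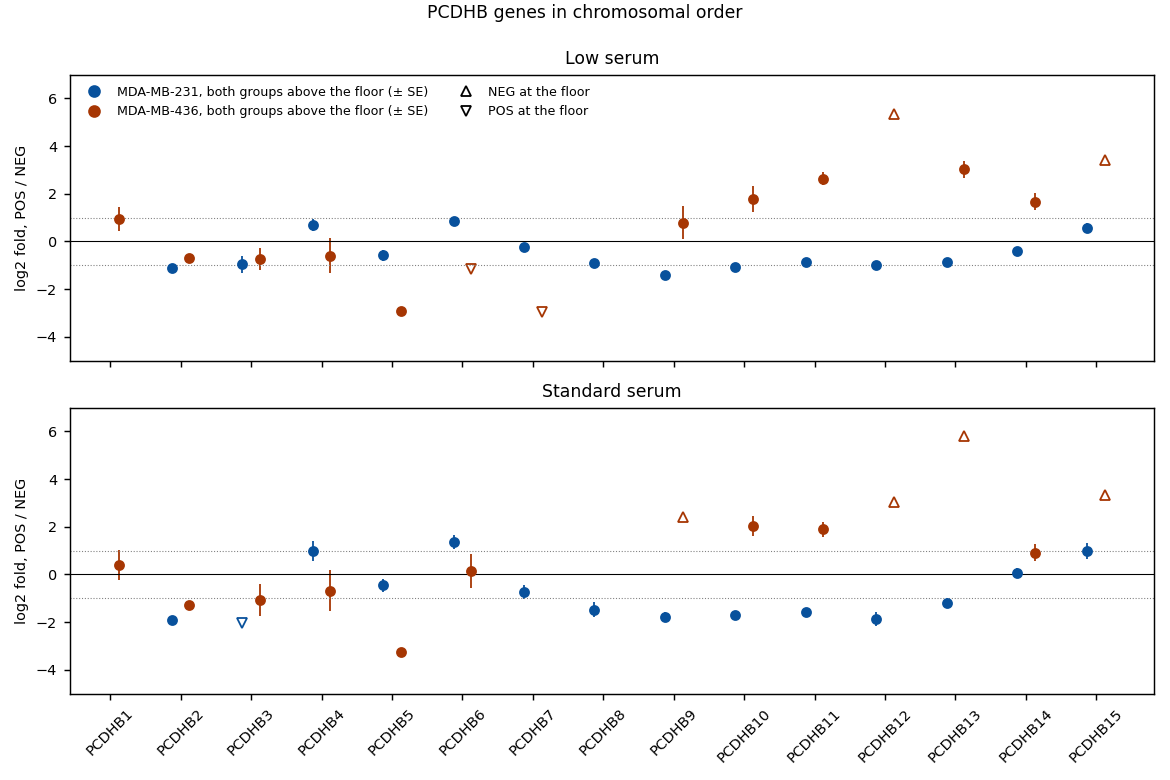
Log2 fold of 7TGP-POS over 7TGP-NEG for the 15 PCDHB genes in chromosomal order, low serum above and standard serum below, with bars for the SE and dotted lines at a log2 fold change of 1 in either direction. Open triangles are genes with a group at 3 counts or fewer in each library, drawn at the observed ratio or, against 0 counts, at the bound given by 3 counts per library, and genes at the floor in both groups are left out. From PCDHB9 to PCDHB14 the MDA-MB-436 points lie above 0 and the MDA-MB-231 points below it, apart from PCDHB14 of MDA-MB-231 in standard serum at 0.06.

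Summed over the cluster, PCDHB counts were lower in 7TGP-POS of both lines. The genes that rose in MDA-MB-436 were scarce ones. The sum changed by -0.82 ± 0.06 in MDA-MB-231 and -0.82 ± 0.07 in MDA-MB-436 in low serum, and by -1.13 ± 0.09 and -1.22 ± 0.09 in standard serum. The difference between the lines was 0.00 ± 0.13 and 0.09 ± 0.13 for these sums, without a call. In MDA-MB-436 the mean sum went from 33.4 to 19.1 CPM in low serum and from 29.6 to 13.3 CPM in standard serum. The fall of PCDHB5 given above made up most of this. The median log2 fold change of single PCDHB genes was 0.79 and 0.91 in MDA-MB-436, against -0.88 and -1.2 in MDA-MB-231, in low and standard serum. The similar sums thus do not show a decrease shared across the cluster. For single genes the difference between the lines was called for 19 of the 84 members tested under low serum and 19 of the 72 under standard serum, against 11.7% and 13.8% of all genes, and 9 and 7 of these were PCDHB genes. It was -2.84 ± 0.54 and -3.72 ± 0.45 for PCDHB10 (edgeR adjusted p = 3.05e-05 and 3.32e-06) and -3.50 ± 0.29 and -3.49 ± 0.36 for PCDHB11 (edgeR adjusted p = 1.85e-13 and 5.15e-07).

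No PCDHA gene was called higher in 7TGP-POS. In MDA-MB-231 in low serum PCDHA1, PCDHA7, PCDHA13, PCDHAC1 and PCDHAC2 were called lower, each with at most 20 counts in a library. In MDA-MB-436 PCDHA5, PCDHA7, PCDHA10 and PCDHAC2 were called lower in low serum, and PCDHA4 and PCDHA7 in standard serum. The shares lower in low serum were 33.3% in MDA-MB-231 and 26.7% in MDA-MB-436, against 2.4% and 4.03% of all genes. In standard serum they were 0% and 28.6% of the 7 genes tested, against 2.72% and 6.06%. Of these 7 genes, 6 were at the floor in both MDA-MB-231 groups, so that the 0% there does not show an absence of change. Apart from those of PCDHAC2 and PCDHA4, the PCDHA calls were lost when 1 library of the groups compared was left out. PCDHAC2, a C-type gene at the end of the cluster, went in MDA-MB-436 from 15.6 and 15.7 CPM to 7.58 and 7.99 CPM in low serum, giving a log2 fold change of -1.02 ± 0.11 (edgeR adjusted p = 1.54e-10), and by -0.55 ± 0.12, under the fold threshold, in standard serum. PCDHA4 went from 4.86 and 6.31 CPM to 1.63 and 1.76 CPM in MDA-MB-436 in standard serum, giving a log2 fold change of -1.78 ± 0.21 (edgeR adjusted p = 1.51e-06), and PCDHAC1 had group means of 2.36 to 4.05 TPM there without a call. The PCDHA sum changed by -1.20 ± 0.20 and -0.95 ± 0.35 in MDA-MB-231 and by -0.78 ± 0.08 and -0.55 ± 0.10 in MDA-MB-436, in low and standard serum, with an edgeR adjusted p of 0.0688 for MDA-MB-231 in standard serum.

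Of 21 PCDHG genes none was called higher, beside 3.5% to 6.52% of all genes over the 4 comparisons. In MDA-MB-231 3 were lower in low serum (PCDHGA10, PCDHGA11 and PCDHGC5) and 5 in standard serum (PCDHGA2, PCDHGA10, PCDHGB1, PCDHGC3 and PCDHGC5), and in MDA-MB-436 PCDHGA1 in both conditions and PCDHGA2 in standard serum. The genes lower in MDA-MB-231 were 14.3% and 23.8% of the 21, against 2.4% and 2.72% of all genes, in low and standard serum. In MDA-MB-436 they were 4.76% and 9.52%, against 4.03% and 6.06%, so that the share in low serum was near that of all genes. The calls of PCDHGA1, PCDHGA2 and PCDHGA11, and of PCDHGC5 in low serum, were lost when 1 library was left out. PCDHGC3, a C-type gene, went in MDA-MB-231 in standard serum from 4.88 and 4.84 CPM to 1.69 and 1.48 CPM, a log2 fold change of -1.67 ± 0.16 (edgeR adjusted p = 2.24e-07). In MDA-MB-436 it stood at 11.02 and 11.2 CPM and 14.6 and 13.2 CPM, a change of 0.26 ± 0.12. PCDHGA10 had 83 and 35 counts in MDA-MB-231 7TGP-NEG and 8 and 6 in 7TGP-POS in standard serum, with log2 fold changes of -1.22 ± 0.24 in low serum, or -0.98 without the first 7TGP-POS library, and -3.13 ± 0.42 in standard serum. PCDHGB1, the PCDHG gene with the highest TPM in MDA-MB-231 7TGP-NEG in low serum (17.6 TPM), changed by -0.59 ± 0.08, under the fold threshold, and by -1.17 ± 0.15 in standard serum. PCDHGC5 had 35 and 23 counts against 3 and 0 in MDA-MB-231 in standard serum, 19.8 (95% exact counting interval 6.44 to 98.7) times more in 7TGP-NEG. PCDHGA4, PCDHGA5, PCDHGA6, PCDHGA7, PCDHGA9, PCDHGB2, PCDHGB3, PCDHGB6, PCDHGB7 and PCDHGC4, which reached a group mean of 1 TPM, were not called, with log2 fold changes in low serum between -1.13 and 0.06. The PCDHG sum changed by -0.63 ± 0.06 and -1.04 ± 0.10 in MDA-MB-231 and by -0.05 ± 0.06 and -0.24 ± 0.09 in MDA-MB-436, and the difference between the lines was -0.58 ± 0.08 and -0.81 ± 0.13 (edgeR adjusted p = 1.98e-08 and 9.25e-05).

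The catenins link classical cadherins to actin. Of 9 catenin genes, none was called in MDA-MB-231 in low serum, and in standard serum CTNNA3 was higher and ARVCF lower. Each was 11.1% of the list, against 4.96% of all genes higher and 2.72% lower. CTNNA3 rested on few reads in standard serum. Its counts, summed per group, were 3 in 7TGP-NEG and 16 in 7TGP-POS in MDA-MB-231, and 25 and 9 in MDA-MB-436. In MDA-MB-436 ARVCF was higher and CTNNA2, JUP and CTNND2 lower in low serum, and CTNNA2, CTNNA3, JUP and CTNND2 were lower in standard serum. The shares lower were 33.3% and 44.4%, beside 4.03% and 6.06% of all genes called lower in the conditions. The share higher in low serum was 11.1%, beside 6.52% of all genes. JUP (plakoglobin), which also serves desmosomes, went in MDA-MB-436 from 50.8 ± 0.157 to 18.3 ± 0.859 CPM in low serum and from 61.1 ± 2.22 to 10.2 ± 1.95 CPM in standard serum (mean ± SD, n = 2), with log2 fold changes of -1.49 ± 0.06 and -2.65 ± 0.10 (edgeR adjusted p = 1.75e-22 and 5.87e-13). CTNNB1 (beta-catenin) was under the fold threshold in all comparisons. Its log2 fold changes in low serum were 0.37 ± 0.05 in MDA-MB-231 and 0.67 ± 0.05 in MDA-MB-436 (edgeR adjusted p = 7.15e-08 and 1.78e-14). In standard serum they were 0.08 ± 0.07 and 0.26 ± 0.07 (edgeR adjusted p = 0.437 and 0.00643). Of the other cadherin superfamily genes, 3 of 22 tested were lower in MDA-MB-231 and 6 higher in MDA-MB-436 in low serum, and among 20 tested in standard serum 2 were lower in MDA-MB-231 and 3 higher and 2 lower in MDA-MB-436. The shares of all genes were 2.4% and 2.72% lower in MDA-MB-231, and 6.52% and 6.47% higher and 4.03% and 6.06% lower in MDA-MB-436, in low and standard serum. FAT3, a giant cadherin, changed by -2.03 ± 0.19 in MDA-MB-231 and 2.21 ± 0.23 in MDA-MB-436 in standard serum (edgeR adjusted p = 2.14e-07 and 3.88e-07).

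Of 13 genes for chromatin architecture and silencing, among them CTCF, cohesin subunits and DNA methyltransferases, NIPBL, the cohesin loader, was the one called. It was lower in MDA-MB-436 7TGP-POS in low serum, at -1.18 ± 0.05 (edgeR adjusted p = 2.83e-23), and changed by -0.89 ± 0.09, under the fold threshold, in standard serum. This single call was 7.69% of the 13 genes, beside 4.03% of all genes called lower there. The nearest genes on the chromosome were examined for members alone, not for NIPBL or the catenins, so a shift of their regions was not tested. Of 11 mesenchymal markers, 5 rose with the reporter in MDA-MB-436 under low serum and 4 under standard serum, with none lower. Of all genes 6.52% and 6.47% were higher there. In MDA-MB-231 1 was higher and 1 lower in low serum and 1 higher and 2 lower in standard serum, VIM being lower in both. The summed level of the mesenchymal markers was 668 to 723 TPM in MDA-MB-436 7TGP-NEG and 767 to 865 TPM in 7TGP-POS in low serum. In standard serum it was 747 to 827 TPM against 1170 to 1294 TPM. In MDA-MB-231 it was 3481 to 3528 TPM against 1857 to 2082 TPM in low serum and 5185 to 5679 TPM against 3143 to 3302 TPM in standard serum. VIM alone held means of 2421 and 1016 TPM of the sums in MDA-MB-231 in low serum. As CPM, the mean sums in low serum were 1281 and 1927 in MDA-MB-436 and 8049 and 5517 in MDA-MB-231. The 14 epithelial markers summed to 1326 to 1421 TPM in MDA-MB-231 7TGP-NEG against 819 to 920 TPM in 7TGP-POS, and to 562 to 605 TPM against 548 to 564 TPM in MDA-MB-436, in low serum. On the CPM scale the sum in MDA-MB-436 had the other direction, with 846 ± 6.58 CPM in 7TGP-NEG and 968 ± 44.6 CPM in 7TGP-POS (mean ± SD, n = 2). CDH5, the endothelial cadherin, had at most 5 counts in a library, and CLDN5 was at 0 or near it in MDA-MB-231, although ESAM and ROBO4 were present there. The part of these markers in the changes of the members was not tested.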

How the data were processed

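Gene counts of 16 libraries were used as deposited. Per the study's methods the authors aligned reads to hg19 with STAR (version 2.6.1a in the submitters' processing notes), which gave the counts, with Gencode annotation. The authors also deposited TPM values, whose calculation is not stated in the sources used here. The labels name a stranded mRNA kit for all libraries, while the methods give ribosomal RNA depletion for low serum, so counts of low and standard serum are not comparable. The submitters' notes also list edgeR 3.22.5 and limma.

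Protein-coding genes with at least 10 counts over the 8 libraries of a condition were fitted with edgeR 4.0.16 (R 4.3.3; TMM factors, robust quasi-likelihood test), 1 model of 4 groups per condition, and p-values were adjusted by Benjamini-Hochberg over all genes tested. The SE of a log2 fold change is its size over the root of the F statistic. CPM used library totals of 27918418 to 46044073 counts. All genes called in a comparison of sublines, all with a group mean of at least 1 TPM, and CDH1, CDH2, CDH3 and CDH11 were to be named, with full statistics for at most 10 called members per comparison and those 4. Members and lists were chosen with earlier results of these data known. The fit was tested on simulated data, and alternatives are given in the closing section.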

Additional observations from a re-analysis of the deposited data

Results flagged for a closer look

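The results below were taken up because the response to the reporter, as the log2 fold change of 7TGP-POS over 7TGP-NEG, differed between the lines by the edgeR test of the difference itself. They are given as MDA-MB-231 minus MDA-MB-436 and hold genes with all groups above the floor. In low serum the difference was 2.21 for PCDH7, 1.03 for CDH13 and -1.83 for CDH4. Among PCDHB genes it was 2.34 for PCDHB5, -2.19 for PCDHB9, -2.84 for PCDHB10, -3.50 for PCDHB11, -3.90 for PCDHB13 and -2.07 for PCDHB14. Among PCDHG genes it was -1.10 for PCDHGA10, -1.03 for PCDHGA11 and -1.27 for PCDHGC3.

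In standard serum the difference was 2.56 for PCDH7, 3.01 for PCDH10, -3.58 for PCDH1, -2.60 for CDH11, -1.19 for CDH13 and -3.21 for CDH4. Among the clustered genes it was 2.79 for PCDHB5, -3.72 for PCDHB10, -3.49 for PCDHB11, -2.44 for PCDHGA10 and -1.94 for PCDHGC3. CDH13 is the gene of these whose difference changed sign between the conditions.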

How the results depend on the processing

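Of the 85 calls of single members, 30 were kept under every alternative run. When 1 library was left out 28 were lost, with the DESeq2 Wald test 22, with limma on log2(TPM + 0.1) 21 and on log2(TPM + 1) 55. The counts of members called are given in the order of MDA-MB-231 in low and standard serum and MDA-MB-436 in low and standard serum. They were 17, 24, 22 and 22, and leaving out 1 library gave 13 to 17, 24 to 25, 16 to 22 and 16 to 24. With clusters summed they were 7, 13, 9 and 12, and with log2(TPM + 1) they were 4, 14, 4 and 8. The DESeq2 Wald test gave 11 in MDA-MB-231 in low serum and 14 in MDA-MB-436 in standard serum, where log2(TPM + 0.1) also gave 14. The adjusted p alone gave 42 in MDA-MB-231 in low serum. With both groups above the floor, an alternative chosen after seeing the data, 11 and 14 were called in low serum in MDA-MB-231 and MDA-MB-436.

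For the difference between the lines in response, 19 and 19 in low and standard serum became 6 and 9 with clusters summed and 10 in low serum with log2(TPM + 1), and 15 to 20 and 17 to 21 with 1 library left out. Between the 7TGP-NEG sublines, 56 and 48 became 17 and 19 with clusters summed, 29 and 24 with log2(TPM + 1), and 51 to 56 and 46 to 49 with 1 library left out. Summing the clusters leaves fewer members by construction, and for the others the cause was not tested.

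To see whether the replicate numbers pair the samples, the difference in log CPM between the replicates of a group was taken for each gene. Between groups these differences correlated at -0.08 to 0.04 in low serum and -0.000212 to 0.16 in standard serum. The numbers were therefore not taken to pair the samples. Under a fit with a replicate block, 15, 24, 22 and 21 members were called, 19 and 20 for the difference between the lines and 56 and 47 between the 7TGP-NEG sublines, and 3 single calls were lost (PCDHA13, PCDHAC1 and PCDH12).

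Changes of sign were seen for CDH1, CDH2 and CDH3, in comparisons where they were not called. With 1 library left out, CDH1 ran from -0.44 to 1.46 (MDA-MB-231, low serum), from -0.37 to 1.02 (MDA-MB-436, low serum) and from -1.29 to 1.56 (MDA-MB-436, standard serum). CDH2 ran from -0.23 to 0.82 (MDA-MB-231, standard serum) and from -0.017 to 0.066 (MDA-MB-436, low serum), and CDH3 from -0.49 to 0.22 (MDA-MB-436, standard serum). With log2(TPM + 0.1) and log2(TPM + 1), CDH2 in MDA-MB-436 in low serum was -0.18 and -0.18, and CDH3 in MDA-MB-231 in low serum -0.046 and -0.019. With log2(TPM + 1), CDH3 in MDA-MB-436 in standard serum was 0.0040.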
